A study of Homo sapiens with 18 samples.

Results

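The transcripts described here are those of the granins and of the enzymes and binding proteins that process prohormones: CHGA, CHGB, SCG2, SCG3, SCG5, VGF, PCSK1, PCSK2, PCSK1N and CPE. They were taken by gene symbol from the gene tables, where they make up 10 of 63677 identifiers. All 10 reached the minimum for testing, a minimum TPM of 1 in 3 or more libraries, which 18650 genes met. TPM is a length-corrected share of the transcripts of a library, scaled to a total of 1e+06.

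Polyadenylated RNA came from bulk xenograft tumours, grown in mice from the established human neuroblastoma cell lines SKNAS, LAN-1 and KELLY. Tumours of every line were labelled either Control or Hmx1, the latter after a homeobox transcription factor gene, which makes 6 groups of 3 libraries and 18 libraries. The labels give no agent for either arm ("None" as treatment everywhere), leave out what was done to HMX1 and with which construct, and give no age or strain of the mice. They mark 2 of the 3 KELLY control libraries as MYCN-amp and leave genotype blank for all others. Whether each library stands for its own mouse is not in the labels, so a p-value here weighs differences only against library-to-library spread, part or all of which may be technical.

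Granins are acidic proteins of the regulated secretory pathway. They gather with hormones and amines in the trans-Golgi network and help form dense-core granules, the storage vesicles of chromaffin cells, sympathetic neurons and the tumours that arise from them. Inside the granule the convertases PCSK1 and PCSK2 cut prohormones and granins at pairs of basic residues, and carboxypeptidase E (CPE) trims the exposed basic residues. Each convertase has a small partner: SCG5 (7B2) escorts and restrains PCSK2, and PCSK1N (proSAAS) restrains PCSK1. Chromogranin A, the product of CHGA, is used in blood and on tissue sections as a marker of neuroendocrine tumours.

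The gene that names the arm, HMX1, was listed at 0 in SKNAS controls and reached 0.193 to 1.24 TPM in SKNAS Hmx1 tumours. It spanned 11.1 to 11.9 TPM in LAN-1 control and 11.5 to 16.5 in LAN-1 Hmx1 libraries, and 3.92 to 7.72 and 4.68 to 6.40 TPM in the KELLY arms. The difference passed the test in none of the 3 lines (limma adjusted p = 0.127 in SKNAS, 1 in LAN-1 and 1 in KELLY). The arms overlapped in LAN-1 and KELLY. In SKNAS they did not, at low values whose changes the tested log2(TPM + 1) understates. By this test the transcript does not check the labels, and "Hmx1" below means the libraries labelled so. Between 14420 and 16441 genes per library reached 1 TPM, and the number of reads is unknown because TPM keeps no depth. Mitochondrial transcripts took 4.47% to 33.8% of a library, and the KELLY control libraries stood apart from each other, at 33.8%, 12.9% and 29.6%. Of the neuroblastoma markers, HAND2 was high in all 6 groups (245 to 356 TPM as group means), while the catecholamine enzyme gene TH was at 2.88 TPM in SKNAS control and 0.107 TPM in SKNAS Hmx1 tumours, against 47.2 to 628 in the other groups. HAND2 does not stand for its list. Of 9 noradrenergic markers tested, 7 were lower and 1 higher in SKNAS control than in LAN-1 control tumours (limma adjusted p under 0.05). Over all genes 20.5% were lower and 31.5% higher. Against KELLY control 7 were again lower and 1 higher, beside 16.1% and 49.5% of all genes.

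Promoters of several of these genes are known for a cyclic AMP response element, the site at which CREB and related factors bind, and the stretches that carry it are shown because they set CHGA beside VGF and PCSK1. RefSeq promoters (GRCh38.p14) were found for 8 of the 10 genes, all except CHGB and SCG2. Each sequence runs 5′ to 3′ over the 250 bases before a transcription start. Capitals mark TGACGTCA, which reads alike on both strands, in all 3, the shorter TGACG in PCSK1, and the TATA motif TATAAA, read on the other strand as TTTATA, in VGF. Only these exact letters were searched. A near match to the TATA motif, such as tatataag in CHGA, stays in lower case.

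CHGA, chr14:92922900-92923149, plus strand: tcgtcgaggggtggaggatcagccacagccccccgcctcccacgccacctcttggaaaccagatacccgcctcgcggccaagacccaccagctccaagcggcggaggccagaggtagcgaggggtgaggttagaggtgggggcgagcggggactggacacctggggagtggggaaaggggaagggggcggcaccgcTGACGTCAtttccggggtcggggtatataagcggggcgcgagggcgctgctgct

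VGF, chr7:101165570-101165819, minus strand: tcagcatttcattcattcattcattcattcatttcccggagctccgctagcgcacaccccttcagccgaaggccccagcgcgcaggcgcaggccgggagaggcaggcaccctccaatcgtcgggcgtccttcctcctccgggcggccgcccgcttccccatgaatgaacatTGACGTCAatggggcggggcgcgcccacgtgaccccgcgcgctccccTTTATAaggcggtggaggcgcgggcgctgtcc

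PCSK1, chr5:96433249-96433498, minus strand: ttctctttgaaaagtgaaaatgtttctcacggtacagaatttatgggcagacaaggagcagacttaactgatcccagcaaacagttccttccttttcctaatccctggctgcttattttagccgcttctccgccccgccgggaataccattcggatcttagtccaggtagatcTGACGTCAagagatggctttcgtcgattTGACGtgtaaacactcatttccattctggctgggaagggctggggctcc

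PCSK1 has a further start, whose promoter (chr5:96432161-96432410) lacks the full element. The full element began 54 bases before the start of CHGA, 79 before that of VGF and 77 before that of PCSK1. It lay in the promoters of these 3 of the 8 genes, and in 1.65% of 35116 RefSeq promoters of the same length. The first 5 letters alone, TGACG on either strand, which every full element also holds, were present in 6 of the 8 genes (also CPE, PCSK2 and SCG5) and in 21.2% of all promoters. CAAGTG, searched on both strands as a core letter string of HMX1 sites, was in none of the 8 and in 9.50% of all promoters. These matches describe letters in a window and say nothing of binding.

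Chromogranin A and chromogranin B moved in opposite directions in the Hmx1 arm, and their directions were swapped between SKNAS and LAN-1. CHGA (ENSG00000100604, GRCh37 chromosome 14, 93389425 to 93401638) stood at 688, 715 and 1071 TPM in the SKNAS control libraries and at 1614, 1303 and 1607 TPM in the SKNAS Hmx1 libraries. The arms did not overlap. CHGA rose from 825 ± 214 to 1508 ± 178 TPM (SD, n = 3 in every group; log2 change 0.89, SE 0.20, limma adjusted p = 0.00603; 0.0539 when only the SKNAS libraries were fitted). In LAN-1 the order was turned. The control libraries held 2624, 2683 and 2247 TPM of CHGA and the Hmx1 libraries 1504, 1341 and 1415, again without overlap. That difference, from 2518 ± 237 to 1420 ± 81.8 TPM, missed the threshold on the TPM scale (log2 change -0.82, SE 0.20, limma adjusted p = 0.0888). In KELLY, CHGA was at 1743, 2947 and 1824 TPM in control and at 2810, 3188 and 2643 TPM in Hmx1 libraries. The KELLY arms overlapped through control replicate 2, the library with the lowest mitochondrial share of its group, whose part in this was not tested (log2 change 0.45, SE 0.20, limma adjusted p = 0.686).

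CHGB (ENSG00000089199, GRCh37 chromosome 20, 5892076 to 5906007), a second acidic granule matrix protein, showed the mirror image. In SKNAS it stood at 341, 415 and 537 TPM in control and at 210.2, 198 and 285 TPM in Hmx1 libraries, with no overlap. Its mean went from 431 ± 99.3 to 231 ± 47.3 TPM (log2 change -0.89, SE 0.29, limma adjusted p = 0.0750). In LAN-1 it stood at 386, 396 and 377 TPM in control and at 867, 960.2 and 799.5 TPM in Hmx1 libraries. Every LAN-1 Hmx1 library thus held more CHGB than any other library of the series. Its mean went from 386 ± 9.07 to 875 ± 80.7 TPM (log2 change 1.17, SE 0.29, limma adjusted p = 0.109). In KELLY it was at 128, 410.0 and 190.5 TPM in control and at 191, 251 and 186 TPM in Hmx1 libraries, which overlapped (log2 change -0.05, SE 0.29, limma adjusted p = 1).

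The CHGB differences and the LAN-1 CHGA difference lay near the threshold and depended on the scale, on the libraries fitted and on KELLY control libraries, which enter the fit through the shared spread. With median-ratio scaling of the libraries, LAN-1 CHGA passed (log2 change -0.75, limma adjusted p = 0.0357), as did CHGB in LAN-1 (1.24, adjusted p = 0.00937) and in SKNAS (-0.88, adjusted p = 0.0121). All 3 also passed with FPKM and with mitochondrial transcripts left out. Without KELLY control replicate 2 all 3 passed as well (LAN-1 CHGA adjusted p = 0.0206, LAN-1 CHGB 0.00665, SKNAS CHGB 0.00538), and without KELLY control replicate 1 CHGB passed in LAN-1 (0.0295) and in SKNAS (0.0208). Fitted to the LAN-1 libraries alone, CHGB passed (0.0310) and CHGA did not, and with the SKNAS libraries alone CHGB did not pass. Not counting fits that drop 1 library of another line, 15 alternatives were run. The threshold was still missed in 12 of them for LAN-1 CHGA (limma adjusted p up to 0.318). It was missed in 11 for LAN-1 CHGB (up to 0.354) and in 12 for SKNAS CHGB (up to 0.256).

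The test of the difference between the lines did not depend on that choice. The Hmx1 effect on CHGA was greater in SKNAS than in LAN-1 by 1.72 (SE 0.28, limma adjusted p = 0.000754), and the difference for CHGB was -2.07 (SE 0.42, adjusted p = 0.00505). Both passed under all 21 alternatives, with 1.60 to 1.92 for CHGA and -2.23 to -1.89 for CHGB. They were the 2 of the 10 transcripts called in that comparison, in which 4.99% of all genes tested were called (2.98% higher and 2.01% lower). Between LAN-1 and KELLY the Hmx1 effects differed by -1.27 for CHGA (SE 0.28, adjusted p = 0.0831) and by 1.23 for CHGB (SE 0.42, adjusted p = 0.448). Between SKNAS and KELLY they differed by 0.45 and -0.84 (adjusted p = 0.462 and 0.327). No member was called in those last comparisons, in which 0.209% and 4.85% of genes were called. At an unadjusted p under 0.05 there were 4 members in LAN-1 against KELLY and 1 in SKNAS against KELLY, beside 6.87% and 16.8% of all genes tested.

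The ratio of CHGA to CHGB within a library is the same under any scaling of that library. It was 2.02, 1.72 and 1.99 in SKNAS control and 7.68, 6.60 and 5.64 in SKNAS Hmx1 libraries. In LAN-1 it was 6.80, 6.78 and 5.95 in control and 1.74, 1.40 and 1.77 in Hmx1 libraries. SKNAS Hmx1 tumours thus held a ratio near that of LAN-1 control tumours, and LAN-1 Hmx1 tumours one near that of SKNAS control tumours. In KELLY it was 13.6, 7.19 and 9.57 in control and 14.7, 12.7 and 14.2 in Hmx1 libraries. An exact two-sided permutation of 3 against 3 libraries cannot go below 0.1, so the ratios are given without a test. The summed level of both chromogranins moved less than their balance, at 1256 ± 309 TPM in SKNAS control, 1739 ± 209 in SKNAS Hmx1, 2904 ± 245 in LAN-1 control and 2296 ± 78.4 in LAN-1 Hmx1 tumours. CHGA made up 63.3% to 66.9% of that sum in SKNAS control and 84.9% to 88.5% in SKNAS Hmx1 libraries, and 85.6% to 87.2% in LAN-1 control and 58.3% to 63.9% in LAN-1 Hmx1 libraries.

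Measured against the secretogranins, both chromogranins moved in SKNAS and LAN-1. The ratio of CHGA to SCG2 went from 16.5 ± 3.18 to 25.0 ± 3.04 in SKNAS and from 37.4 ± 4.05 to 17.96 ± 1.014 in LAN-1. The ratio of CHGB to SCG2 went from 8.64 ± 1.62 to 3.78 ± 0.270 in SKNAS and from 5.73 ± 0.226 to 11.1 ± 0.837 in LAN-1. Arms of these ratios did not overlap, and the ratios to SCG3 had the same directions. Within groups CHGA and CHGB ran together: deviations of log2(TPM + 1) from the group mean had a Pearson r of 0.84 between CHGA and CHGB over 18 libraries, 0.74 over the 15 outside KELLY control and 0.71 over the 12 outside KELLY. Their levels over all 18 libraries had an r of -0.28. That pair was not alone, as deviations had an r of 0.85 between SCG3 and CPE and 0.74 between CHGB and CPE. SCG2 followed less, at 0.27 with CHGA and 0.355 with CHGB. These coefficients describe libraries that share lines and scaling and carry no test.

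**Figure D1:**
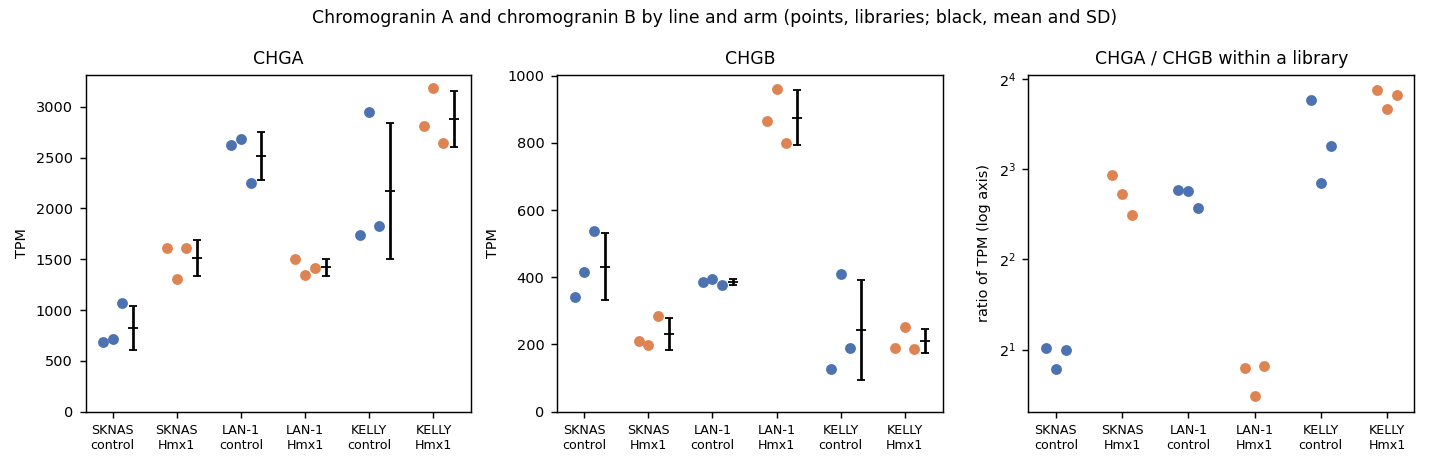
TPM of CHGA (left) and CHGB (middle) and their ratio on a log axis (right) in each library, blue for control and orange for Hmx1, with group mean and SD in black. In SKNAS the ratio stands at 1.72 to 2.02 in control and 5.64 to 7.68 in Hmx1 libraries, and in LAN-1 at 5.95 to 6.80 and 1.40 to 1.77.

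SCG2, SCG3 and VGF passed the test in no line. SCG2 (secretogranin II, ENSG00000171951, GRCh37 chromosome 2, 224461658 to 224467221), the precursor of secretoneurin, was at 49.5, 46.2 and 53.5 TPM in SKNAS control and at 60.1, 49.0 and 74.9 TPM in SKNAS Hmx1 libraries. It was at 64.8, 69.2 and 68.5 TPM in LAN-1 control and at 81.2, 79.9 and 76.3 TPM in LAN-1 Hmx1 libraries, which did not overlap. It was at 14.5, 18.6 and 26.7 TPM in KELLY control and at 25.4, 24.7 and 14.5 TPM in KELLY Hmx1 libraries. Its log2 changes were 0.28, 0.23 and 0.11 (SE 0.22; limma adjusted p = 0.606, 0.998 and 1), and the KELLY libraries lay below all others.

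SCG3 (ENSG00000104112, GRCh37 chromosome 15, 51973550 to 52013223) encodes a granin that binds CHGA and cholesterol-rich granule membrane. It was at 57.0, 40.7 and 57.9 TPM in SKNAS control and at 70.6, 63.9 and 84.4 TPM in SKNAS Hmx1 libraries, without overlap. In LAN-1 it was at 121.7, 125.3 and 136 TPM in control and at 136, 152.5 and 161.4 TPM in Hmx1 libraries, and in KELLY at 49.5, 93.2 and 75.6 TPM and at 84.1, 83.2 and 82.9 TPM. Its log2 change was positive in all 3 lines, at 0.49, 0.23 and 0.24 (SE 0.19), with an adjusted p of 0.157 in SKNAS (0.0389 with median-ratio scaling and 0.0335 without KELLY control replicate 1), and 0.32 as their mean (SE 0.11, limma adjusted p = 0.170). The mean effect passed with median-ratio scaling and without KELLY control replicate 2. No member was called for the mean effect on the TPM scale, where 3.54% of genes were called and 2 members had an unadjusted p under 0.05, as did 12.5% of all genes tested.

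VGF (ENSG00000128564, GRCh37 chromosome 7, 100805790 to 100808874), a neurotrophin-induced granin precursor, was low. It was at 8.13, 7.79 and 14.5 TPM in SKNAS control and at 21.7, 12.7 and 11.4 TPM in SKNAS Hmx1 libraries. In LAN-1 it was at 9.19, 8.77 and 7.78 TPM in control and at 5.23, 8.31 and 5.72 TPM in Hmx1 libraries, and in KELLY at 2.89, 2.54 and 5.40 TPM and at 5.63, 5.57 and 3.50 TPM. The arms overlapped in all 3 lines, with log2 changes of 0.54, -0.39 and 0.38 (SE 0.29; limma adjusted p = 0.342, 0.945 and 0.922).

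SCG5 (ENSG00000166922, GRCh37 chromosome 15, 32933877 to 32989299), the PCSK2 chaperone, fell in LAN-1. It was at 8.38, 8.37 and 10.4 TPM in LAN-1 control and at 2.42, 2.66 and 4.06 TPM in LAN-1 Hmx1 libraries, without overlap. The mean went from 9.04 ± 1.15 to 3.05 ± 0.885 TPM (log2 change -1.33, SE 0.27, limma adjusted p = 0.0314). The call failed under 8 of the 15 alternatives. It failed without any 1 of the LAN-1 control libraries and without LAN-1 Hmx1 replicate 1 or 2, with limma adjusted p from 0.0883 to 0.150 in those 5. In the Coverage column its log2 change was -0.95 (adjusted p = 0.115), the smallest of the 15, and the greatest was -1.57. That column, the mean depth per base, held only 2.29 to 2.92 in LAN-1 control and 0.552 to 1.04 in LAN-1 Hmx1 libraries. The quotient of TPM to Coverage was 3.50 to 3.67 in the control and 3.90 to 4.38 in the Hmx1 libraries. The call also failed without SKNAS Hmx1 replicate 1 (adjusted p = 0.0512), a library outside the comparison. Fitting the LAN-1 libraries alone, 1 of the 15, gave 0.118. SCG5 was at 3.20, 4.74 and 3.32 TPM in SKNAS control and at 2.16, 1.64 and 3.35 TPM in SKNAS Hmx1 libraries, which overlapped (log2 change -0.51, limma adjusted p = 0.335). In KELLY, where it was highest, it stood at 19.2, 30.0 and 25.7 TPM in control and 55.4, 26.6 and 32.8 TPM in Hmx1 tumours, whose means differed by 0.55 on the log2 scale (limma adjusted p = 0.744). The LAN-1 and KELLY effects differed by -1.88 (SE 0.38, limma adjusted p = 0.0513).

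Each convertase reached 1 TPM in 1 of the 3 lines. PCSK1 (ENSG00000175426, GRCh37 chromosome 5, 95726119 to 95769847) was at 2.28, 1.57 and 1.31 TPM in SKNAS control and at 1.46, 1.26 and 2.08 TPM in SKNAS Hmx1 libraries. It reached at most 0.0236 TPM in LAN-1 and was listed at 0 in all 6 KELLY libraries. PCSK2 (ENSG00000125851, GRCh37 chromosome 20, 17206752 to 17465223) was at 8.67, 8.92 and 7.56 TPM in LAN-1 control and at 11.5, 10.02 and 10.1 TPM in LAN-1 Hmx1 libraries. It was listed at 0 in all 12 SKNAS and KELLY libraries. KELLY tumours thus held neither transcript in these tables while carrying the most SCG5. Each convertase passed the minimum for testing only through the line in which it was high, so the difference between lines is a description. Within their lines the arms differed by -0.06 for PCSK1 in SKNAS (SE 0.14, limma adjusted p = 0.912) and by 0.30 for PCSK2 in LAN-1 (SE 0.12, adjusted p = 0.567). The LAN-1 arms did not overlap for PCSK2.

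PCSK1N (ENSG00000102109, GRCh37 chromosome X, 48689504 to 48694035), the source of the PCSK1 inhibitor, was highest in LAN-1, where PCSK1 was near 0. It was at 7.10, 7.82 and 5.97 TPM in LAN-1 control and at 9.16, 20.3 and 11.6 TPM in LAN-1 Hmx1 libraries, without overlap (log2 change 0.82, SE 0.32, limma adjusted p = 0.511). It was at 1.008, 0.655 and 2.11 TPM in SKNAS control, 3.26, 1.26 and 1.37 TPM in SKNAS Hmx1, 2.63, 1.55 and 1.29 TPM in KELLY control and 1.71, 0.572 and 1.015 TPM in KELLY Hmx1 libraries. The SKNAS and KELLY arms overlapped (adjusted p = 0.630 and 0.918).

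CPE (ENSG00000109472, GRCh37 chromosome 4, 166282346 to 166419472) stood highest in SKNAS. It was at 379, 328.5 and 382 TPM in SKNAS control and at 371.5, 358 and 479 TPM in SKNAS Hmx1 libraries. It was at 49.5, 48.2 and 48.6 TPM in LAN-1 control, at 55.7, 53.9 and 53.2 TPM in LAN-1 Hmx1, at 37.6, 88.4 and 75.7 TPM in KELLY control and at 87.3, 71.98 and 65.9 TPM in KELLY Hmx1 libraries. Every SKNAS library was thus above every other library. The arms differed by 0.14, 0.15 and 0.23 in the order SKNAS, LAN-1 and KELLY (SE 0.23; limma adjusted p = 0.864, 1 and 0.967). The LAN-1 arms did not overlap.

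**Figure D2:**
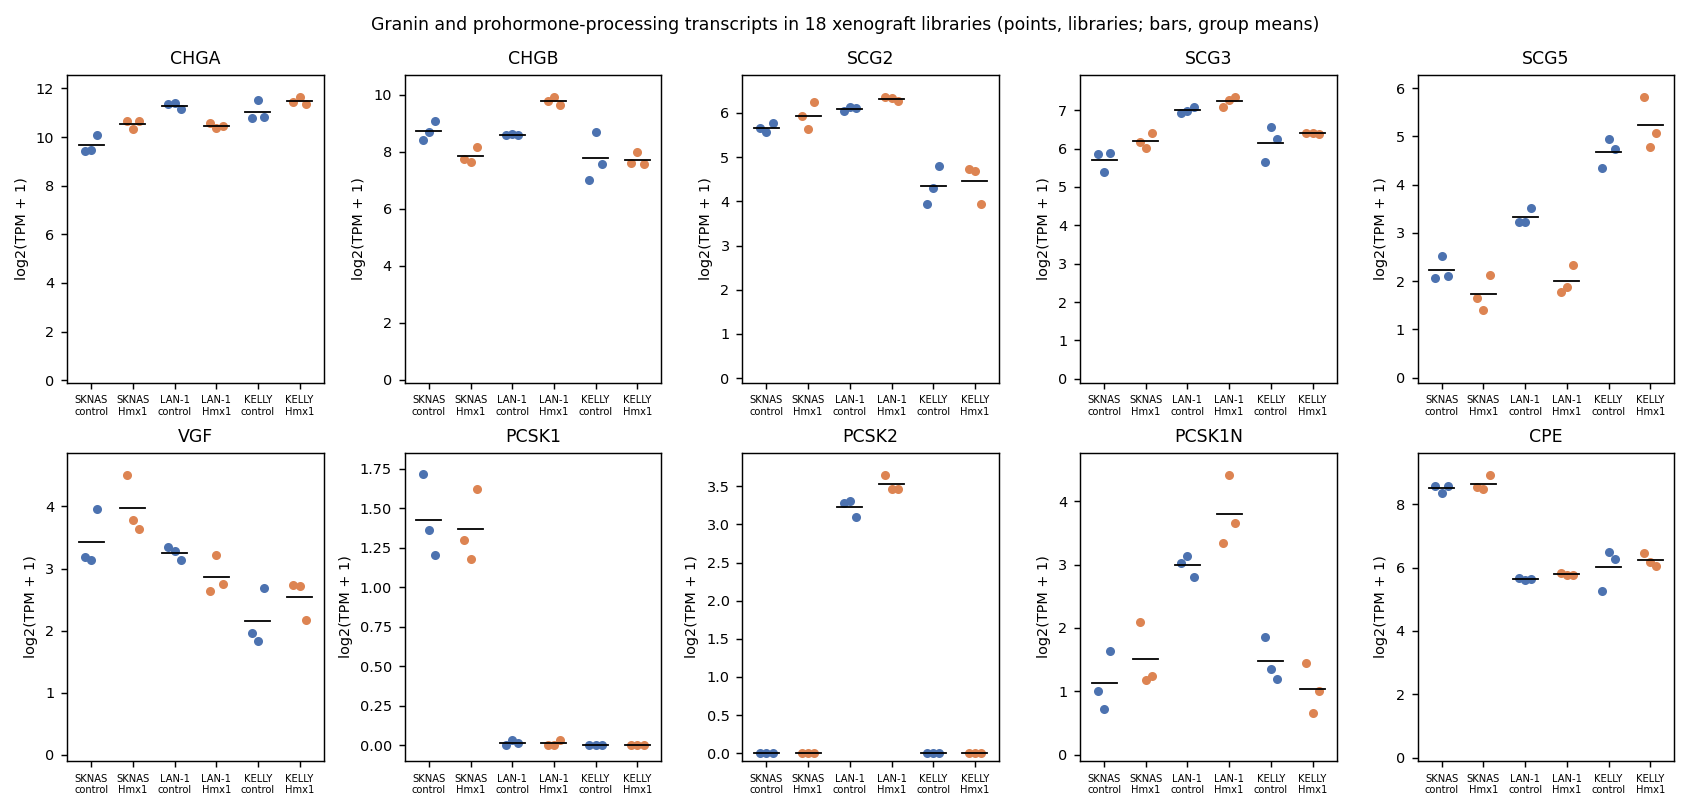
log2(TPM + 1) of the 10 transcripts, 1 panel per gene with its own vertical axis, in the 6 groups (blue points control libraries, orange points Hmx1 libraries, black bars group means). PCSK1 lies above 1 TPM in SKNAS libraries alone, and PCSK2 is listed at 0 outside LAN-1.

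Over the 10 transcripts, 1 was called in SKNAS (CHGA, higher), where 8.76% of all genes tested were called and 4.96% were higher. In LAN-1 1 was called (SCG5, lower), where 0.450% were called and 0.279% were lower; median-ratio scaling turned the split of all calls there from 32 higher of 84 to 94 of 170. In KELLY 0 were called in KELLY, against 0.0912%. At an unadjusted p under 0.05 limma gave 3 members in SKNAS, 5 in LAN-1 and 1 in KELLY, where 18.6%, 7.19% and 6.85% of all genes tested had one. Arms did not overlap for 3 members in SKNAS, where 30.9% of genes did not overlap, for 7 in LAN-1 against 15.8%, and for 0 in KELLY against 6.67%. The median log2 change of the 10 was 0.21, 0.19 and 0.17, beside 0, -0.05 and 0.02 over all genes tested. The comparisons within a line use separate libraries, while the tests between lines reuse them.

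**Figure D3:**
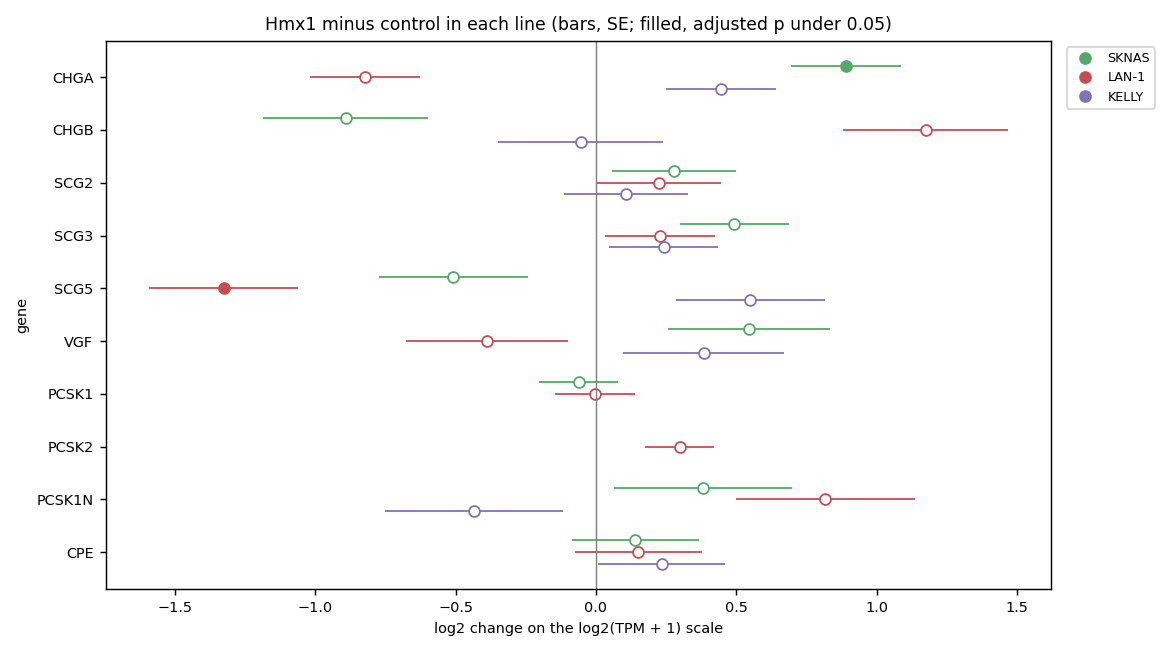
Log2 change (Hmx1 minus control, log2(TPM + 1) scale) of each transcript in SKNAS, LAN-1 and KELLY, with SE bars and filled points where the limma adjusted p was under 0.05; transcripts listed at 0 in both arms are not drawn. CHGA and CHGB point in opposite directions in SKNAS (0.89 and -0.89) and in LAN-1 (-0.82 and 1.17).

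Control tumours of the 3 lines differed in most members, as they did in most genes. Of the 10, 7 were called between SKNAS and LAN-1 control tumours (2 higher and 5 lower in SKNAS), where 52.0% of genes were called (31.5% higher and 20.5% lower). Between SKNAS and KELLY 7 were called (5 higher and 2 lower in SKNAS), where 65.7% were called (49.5% higher and 16.1% lower), and between LAN-1 and KELLY 7 (6 higher and 1 lower in LAN-1), where 51.8% were called (38.2% higher and 13.6% lower). Libraries did not overlap for 8, 6 and 6 members, beside 66.5%, 63.6% and 55.8% of all genes. Those counts include PCSK1, PCSK2 or both, which had to differ. The median gene was itself shifted by 0.18, 0.54 and 0.34 in these comparisons, and by 0.05, 0.02 and -0.01 after median-ratio scaling. With that scaling the members split into 2 higher and 6 lower, 4 higher and 3 lower, and 3 higher and 2 lower. Over all genes, 5870 of 9696 calls were higher in SKNAS than in LAN-1, 9234 of 12245 higher in SKNAS than in KELLY and 7133 of 9663 higher in LAN-1 than in KELLY. After median-ratio scaling those counts were 5432 of 10327, 5812 of 11477 and 4526 of 9222.

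CHGA was lower in SKNAS control than in LAN-1 control tumours (log2 difference -1.63, SE 0.20, limma adjusted p = 1.74e-06), and than in KELLY control tumours (-1.38, SE 0.20, adjusted p = 9.48e-06). Relative to the median gene these differences were -1.81 and -1.93. SCG5 was lower in SKNAS and in LAN-1 than in KELLY (-2.44 and -1.36; adjusted p = 4.45e-07 and 0.000414; -2.99 and -1.69 relative to the median gene). CPE was higher in SKNAS than in LAN-1 (2.87, adjusted p = 8.26e-09; 2.69 relative to the median) and than in KELLY (2.50, adjusted p = 4.77e-08; 1.96 relative to the median). SCG2 was higher in SKNAS and LAN-1 than in KELLY (1.32 and 1.75; 0.77 and 1.42 relative to the median). SCG3 was lower in SKNAS than in LAN-1 (-1.30, adjusted p = 2.42e-05), and PCSK1N likewise (-1.86, adjusted p = 9.5e-05). With median-ratio scaling SCG3 was also lower in SKNAS than in KELLY (-1.10, limma adjusted p = 8.1e-06, against -0.45 and 0.0505 on the TPM scale). CPE was then lower in LAN-1 than in KELLY (-0.85, adjusted p = 9.76e-05, against -0.37 and 0.186). SCG2 was then lower in SKNAS than in LAN-1 (-0.60, adjusted p = 0.0121, against -0.44 and 0.110). The same scaling lost the calls of SCG3 and VGF between LAN-1 and KELLY (adjusted p = 0.0545 and 0.0606). CHGB was the least stable: its higher level in LAN-1 than in KELLY (0.84, adjusted p = 0.0243) was lost in 9 of 15 alternatives, including without KELLY control replicate 1 (0.46, adjusted p = 0.166), without KELLY control replicate 3 (0.75, adjusted p = 0.0768) and without LAN-1 control replicate 1 or 2 (0.84 and 0.82, adjusted p = 0.0547 and 0.0596). Its difference of 0.97 between SKNAS and KELLY (adjusted p = 0.00802) was 0.60 without KELLY control replicate 1 (adjusted p = 0.0612) and 0.32 with median-ratio scaling (adjusted p = 0.214).

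**Figure D4:**
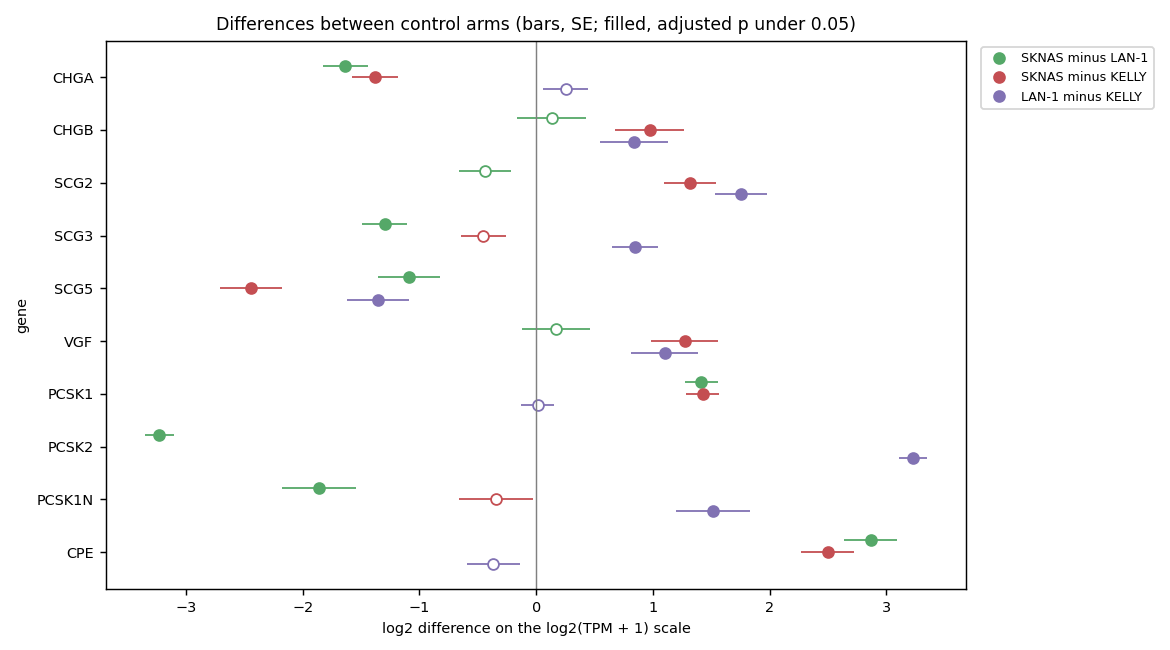
Log2 difference between control arms (log2(TPM + 1) scale) for each transcript in the 3 pairs of lines, with SE bars and filled points where the limma adjusted p was under 0.05; PCSK2 is not drawn for SKNAS minus KELLY, where it is listed at 0 in both. CPE stands to the right in SKNAS (2.87 and 2.50) and SCG5 to the left in the comparisons with KELLY (-2.44 and -1.36). PCSK1 and PCSK2 met the minimum for testing only through the line in which they were high, so their filled points had to differ and are a description.

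By mean TPM, CHGA led in all 6 groups, and its libraries placed it between the 45th and the 158th most abundant gene. The order of the groups for CHGA was KELLY Hmx1, LAN-1 control, KELLY control, SKNAS Hmx1, LAN-1 Hmx1 and SKNAS control, and libraries overlapped between the first and the second, the second and the third, and the fourth and the fifth. That order changed under each of the alternatives run: KELLY control passed LAN-1 control with FPKM, with median-ratio scaling and without mitochondrial transcripts, and LAN-1 Hmx1 passed SKNAS Hmx1 with median-ratio scaling and in the Coverage column. For CHGB it was LAN-1 Hmx1, SKNAS control, LAN-1 control, KELLY control, SKNAS Hmx1 and KELLY Hmx1, and every neighbouring pair after the first overlapped. LAN-1 Hmx1 stayed first in all of them, while places after it changed with FPKM, median-ratio scaling and Coverage. The place of CPE among the members depends on the deposited column. Its TPM was 14.9 to 20.0 times its value in the Coverage column, the mean read depth per base, while that quotient was 0.416 to 0.989 for CHGA, CHGB, SCG2, SCG3, VGF, PCSK1 and PCSK1N and 0.819 to 1.07 for the median gene of a library. In SKNAS control CPE had a mean coverage of 18.7 against 87.0 for SCG2, although its TPM was 363 ± 30.0 against 49.7 ± 3.65. SCG5 (3.02 to 5.36) and PCSK2 (3.82 to 4.92) also had a high quotient, so their levels beside other genes rest on the TPM column too.

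The counts of the other pathway genes stand beside 8.76% of all genes called in SKNAS, 0.450% in LAN-1 and 0.0912% in KELLY. Of 13 tested further convertases and peptide-end enzymes, 0 rose and 1 fell in SKNAS, 1 rose and 0 fell in LAN-1, and none passed in KELLY. PAM, the enzyme that amidates peptide ends, fell in SKNAS from 212 ± 4.09 TPM to between 105.3 and 126 TPM in the 3 Hmx1 libraries (log2 change -0.91, limma adjusted p = 0.00270). AOPEP, an aminopeptidase, rose in LAN-1 from 29.1 ± 2.95 to 83.4 ± 33.3 TPM (1.42, adjusted p = 0.0144), a call lost without LAN-1 control replicate 1 (adjusted p = 0.0833) or 2 (0.0516) or Hmx1 replicate 1 (0.05001), and with only the LAN-1 groups (0.190). Between control arms PCSK6, another convertase, was at 9.19 ± 2.70 TPM in SKNAS and 15.04 ± 2.28 in LAN-1 and listed at 0 in KELLY. QPCT, which forms pyroglutamate ends, was at 8.34 ± 3.46 TPM in KELLY and under 0.12 TPM in SKNAS and LAN-1 control libraries. KELLY control tumours therefore lacked PCSK1, PCSK2 and PCSK6 in these tables. FURIN, a convertase of the constitutive pathway, was at 6.72 ± 2.42 TPM there. Levels of PCSK4, PCSK5, PCSK7 and MBTPS1, also on the list, are not reported here, so FURIN cannot be read as the only other convertase in KELLY.

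Of 34 tested genes of granule membrane, docking and release, 3 rose and 2 fell in SKNAS, 0 rose and 1 fell in LAN-1, and none passed in KELLY. In SKNAS, ICA1, a granule-associated autoantigen gene, rose from 104 ± 12.7 to 433 ± 85.4 TPM (log2 change 2.03, limma adjusted p = 1.15e-06). SYT9, a calcium sensor of release, rose from 10.96 ± 1.59 to 18.5 ± 2.09 TPM (0.71, adjusted p = 0.00908; 0.0532 without SKNAS control replicate 2 and 0.268 with a pseudocount of 0.1). The SNARE gene VAMP2 rose from 21.9 ± 2.21 to 34.8 ± 3.96 TPM (0.64, adjusted p = 0.0105; 0.0607 without SKNAS Hmx1 replicate 3). CADPS2, a priming factor, fell from 6.80 ± 0.604 to 3.91 ± 0.381 TPM (-0.67, adjusted p = 0.000978; 0.0837 with a pseudocount of 0.1). SNAP25, a SNARE partner named after its values were seen, fell from 117.2 ± 5.48 to 67.0 ± 0.607 TPM (-0.80, adjusted p = 0.0426) and lost its call in 9 of 15 alternatives. Between control tumours, the amine transporter gene SLC18A1 was at 0.167, 12.2 and 51.4 TPM and SLC18A2 at 0.0221, 1.10 and 36.0 TPM in SKNAS, LAN-1 and KELLY, and the granule phosphatase-like gene PTPRN2 at 0.347, 14.5 and 4.27 TPM. In LAN-1, CYB561, which carries electrons across the granule membrane, fell from 20.9 ± 0.896 to 6.71 ± 0.755 TPM (-1.51, adjusted p = 0.00118).

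Of 17 tested transcription regulators of granin genes, 1 fell and none rose in LAN-1, and none passed in KELLY. NEUROD1, a neuroendocrine factor, fell in LAN-1 from 27.2 ± 11.6 to 6.97 ± 1.56 TPM (log2 change -1.77, limma adjusted p = 0.00108; 0.167 with the LAN-1 libraries fitted alone). REST, the repressor of neuronal and granin genes, did not pass in any line. Its control means were 11.9 ± 0.744 TPM in SKNAS, 5.62 ± 0.859 in LAN-1 and 0.894 ± 0.730 in KELLY, and its Hmx1 means 7.62 ± 1.22, 3.94 ± 1.12 and 0.920 ± 0.492 TPM. INSM1, a neuroendocrine factor, had control means of 102 ± 4.44, 44.2 ± 2.84 and 5.42 ± 1.83 TPM in the same order, INSM2 of 55.2, 309.5 and 256 TPM and JUN of 12.8, 49.0 and 13.9 TPM. Of 7 tested secretory peptides and related genes, 1 rose in SKNAS and none passed in LAN-1 or KELLY. GAL, the galanin gene, rose in SKNAS from 207 ± 23.8 to 497 ± 74.5 TPM (1.25, adjusted p = 8.25e-05). NPY, the neuropeptide Y gene, was at 67.0 ± 41.2 TPM in KELLY control, and SVOP at 1.42, 4.62 and 11.2 TPM in SKNAS, LAN-1 and KELLY control. SST, the somatostatin gene, was at 491 ± 116.4 TPM in KELLY control and listed at 0 in SKNAS and LAN-1 control libraries.

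Some genes listed as markers of other cell types moved with the arms in SKNAS. Whether tumour cells or mouse cells made these transcripts was not tested. The counts stand beside 8.76% of all genes tested that were called in SKNAS, with 4.96% called higher. Lists this short cannot tell a count of 1 or 2 from that share. The summed level of 7 genes listed as host fibroblast markers was 794 to 937 TPM in SKNAS control and 581 to 692 TPM in SKNAS Hmx1 libraries, where 3 of 7 fell (LUM, DPT and PDGFRA). The sum of 9 mesenchymal genes went from 1094 to 1144 TPM down to 737 to 768 TPM, and 2 of 9 fell (SNAI2 and TWIST1). The sum of 7 leukocyte genes was 77.4 to 105 TPM in control and 190 to 287 TPM in Hmx1 libraries, and PTPRC, which rose, made up most of it (91.9 ± 14.2 and 231 ± 49.6 TPM), CD14 fell, and AIF1 was listed at 0 in SKNAS control libraries and LYZ in SKNAS Hmx1 libraries. Of the leukocyte genes 3 reached the minimum for testing. Of 5 endothelial genes tested, TEK rose and ENG fell in SKNAS, and of 2 muscle genes TNNI2 fell. Of 4 endocrine genes CALCA and GCG fell, and of 9 noradrenergic genes DDC rose and TH fell. Several of these calls were lost under alternatives: TWIST1 in 9 of 15, DDC in 7 of 15, PDGFRA and CALCA in 4 of 15 each, SNAI2 and LUM in 1 of 15 each, CD14 in 8 of 13, DPT in 6 of 13 and TNNI2 in 4 of 14. Leaving out 1 SKNAS library at a time was enough for TWIST1 (any of the 6), DDC, CD14, DPT, PDGFRA, TNNI2 and CALCA. The part of any such cell types in the CHGA, GAL and granule gene results was not tested. In LAN-1 the same sums were 15.9 to 19.6 and 12.7 to 18.4 TPM for fibroblast genes and at most 1.75 TPM for leukocyte genes. The 8 genes listed for endocrine host tissue summed to 20.4 to 25.2 TPM in SKNAS control and 11.7 to 16.8 TPM in SKNAS Hmx1 tumours, mostly CALCA, and to 1.39 to 6.46 TPM elsewhere. In bulk tumours fewer cells of a type and less RNA per cell cannot be told apart.

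The genes most like each member were sought over the 18 libraries by Pearson's r of log2(TPM + 1), among the genes tested. CHGA was nearest to KIRREL2 and TBX3 (r = 0.90 for both) and CHGB to HINT1 (0.89) and IDI1 (0.88). SCG3 was nearest to CD24P4 (0.96) and ABAT (0.95), VGF to LINC02916 (0.92) and OTUD7A (0.91), and PCSK1N to ENSG00000267327 (0.95) and ALKAL1 (0.94). SCG2 was nearest to MAP3K2 and TMTC1 (0.97 for both), SCG5 to P2RX5 and KLK3 (0.96 for both), PCSK1 to METTL7B (0.996) and MICA (0.99), PCSK2 to LINC02893 and LDHAL6A (0.999 for both) and CPE to CDKAL1 and LINC00960 (0.99 for both). The 18 libraries share lines and scaling, so these coefficients are a description and carry no p.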

How the data were processed

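The members and gene lists were chosen with earlier results of these data known. Per the labels' protocols, tumour RNA was purified with a kit for fatty tissue and sequenced from stranded poly(A) libraries as 125 bp pairs over 2 lanes. The submitters' processing notes list STAR, FastQC and bcl2fastq, and both GRCh37 and GRCh38.p12 without saying which served for what. Not given in the sources used here: the program and annotation behind the gene tables, any use of strand, and any step against mouse reads. Mouse reads may therefore count towards human genes, and SCG3, SCG5, PCSK1, PCSK2 and CPE overlap genes on the opposite strand (those at most 0.486 TPM).

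TPM, FPKM and Coverage (a coverage signal, mean depth per base) are deposited columns, per the file headers. Coordinates of the tables were read as GRCh37, since the last gene on chromosome 1 ends at 249231242, beyond 248937099 in RefSeq GRCh38; promoter coordinates are GRCh38.p14. Symbols were matched by identifier (52181 of 63677). Values of identifiers listed more than once in a library (9 to 15 such lines) were summed.

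Groups came from the sample titles. All tests used log2(TPM + 1), which understates changes of low genes, on the 18650 genes that reached a TPM of 1 in 3 or more libraries. limma 3.58.1 (R 4.3.3) fitted 6 group means and a mean-variance trend to all 18 libraries (residual df 12, prior df 4.95), and p-values were Benjamini-Hochberg adjusted over all genes in each of 10 comparisons and called under 0.05. The code was tested on simulated data. Read counts are not among the deposited columns, so no counting interval is given. No replicate pair was a copy (r from 0.961 to 0.989).

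All 10 members are named with every library. Of the other lists (11 in all), genes called in an Hmx1 comparison are named, up to 4 per list by adjusted p, and for control tumours up to 2 by size of difference (those of marker lists are not printed); REST, FURIN, HAND2, SNAP25 and the host markers listed at 0 were named after their values were seen. Some listed genes are not reported here. Alternatives were a pseudocount of 0.1, no filter, a minimum of 5 TPM, FPKM, median-ratio scaling, no mitochondrial transcripts, only the groups compared, no trend, each library left out, and, added after seeing the data, the Coverage column scaled to a total of 1e+06 and each library of the lines outside a comparison left out.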

Additional observations from a re-analysis of the deposited data

Results flagged for a closer look

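The Hmx1 effect on CHGA differed between SKNAS and LAN-1 by 1.72 on the log2(TPM + 1) scale (limma adjusted p = 0.000754): all 3 SKNAS Hmx1 libraries lay above all 3 of their controls, and all 3 LAN-1 Hmx1 libraries below theirs. The effect on CHGB differed by -2.07 (limma adjusted p = 0.00505), with every library of both lines on the opposite side to CHGA. Both were singled out because a test of the difference between lines passed. No explanation was weighed.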

How the results depend on the processing

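The differences between SKNAS and LAN-1 for CHGA and CHGB kept their direction and call in all 21 alternatives. The count of members called within a line was less stable. In SKNAS it was 1 and became 2 with FPKM, 3 with median-ratio scaling, 2 without mitochondrial transcripts and 0 with only the compared groups, and ranged from 1 to 3 with a library left out (3 without KELLY control replicate 1, 2 without KELLY control replicate 2). In LAN-1 it was 1 and became 0 with no filter, 3 with FPKM, 3 with median-ratio scaling, 3 without mitochondrial transcripts and 0 with the Coverage column, and ranged from 0 to 3 with a library left out (3 without KELLY control replicate 2, 2 without KELLY control replicate 1). For the mean effect it was 0 and became 1 (SCG3) with median-ratio scaling, and ranged from 0 to 1 with a library left out. For SKNAS against KELLY it ranged from 0 to 1 (CHGB, without KELLY control replicate 2). For LAN-1 against KELLY it was 0 and became 2 (CHGA and SCG5) with FPKM, 2 with median-ratio scaling and 1 (SCG5) with no trend, and ranged from 0 to 2 with a library left out. The cause was not tested.

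Effects near 0 changed sign. PCSK1 in SKNAS (-0.06) was 0.0089 with the Coverage column and -0.19 to 0.082 with a library left out. In KELLY, CHGB (-0.05) was 0.047 with the Coverage column and -0.43 to 0.41 with a library left out, and SCG2 (0.11) was -0.023 without mitochondrial transcripts and -0.089 to 0.36 with a library left out. Leaving out a KELLY library gave -0.0083 to 0.44 for SCG3 and -0.13 to 0.47 for CPE. No paired analysis was possible because the labels carry no replicate numbers, so those used here only name libraries. TPM keeps no depth. In the Coverage column, PCSK1 reached at most 0.0475 in LAN-1 control and 0.0473 in LAN-1 Hmx1 libraries, and was 0 wherever its TPM was listed at 0. Read counts were not derived from that column.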
